A study of Mus musculus with 16 samples.

Results

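The genes described here are 38 regulators and machinery genes of the cell division cycle, followed in mouse liver across genotype and fasting. They were listed by symbol and taken from the probe sets of the array annotated to those symbols, using the probe set with the highest mean over all arrays where a gene had several. Of the 38, 36 had a probe set of their own among the 19938 genes tested: 5 that act between G1 and S phase, 14 that license, carry out or supply DNA replication, and 17 that act in G2 and mitosis. Cdkn1a (the p21 inhibitor) was only on a probe set shared with other symbols and Ccnb1 (cyclin B1) on none with a listed symbol, so both were not analysed here. The 16 livers came from male mice 4 months old, 4 in each group, all carrying TgINS-MCK-Mut, a Mut transgene driven by the muscle creatine kinase promoter. Controls were Mut +/-;TgINS-MCK-Mut heterozygotes and the others Mut -/-;TgINS-MCK-Mut mutants, which lack the native gene for methylmalonyl-CoA mutase, the enzyme deficient in methylmalonic acidemia. Each genotype was sampled unfasted on normal diet and after a fast, of 12 h in heterozygotes and 8 to 12 h in mutants, so that length of fast and genotype cannot be told apart in the fasted animals. Values are log2 intensities, on which a difference of 1 is a 2-fold ratio.

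Cells commit to division when D-type cyclins and then E-type cyclins, with their kinases, inactivate the retinoblastoma proteins and free E2F factors to switch on S-phase genes. The MCM helicase is loaded on origins by Cdc6 and Cdt1 in G1 and unwinds DNA in S phase while ribonucleotide reductase and the thymidylate enzymes supply nucleotides, and a later wave of transcription, driven with FoxM1 and B-Myb, provides the cyclins, kinases and motors of mitosis. Hepatocytes of the adult liver are largely quiescent, can re-enter the cycle after injury or loss of liver mass, and often replicate DNA without dividing.

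The targeted gene followed the labels: the mean of Mmut over 4 livers was 9.82 ± 0.11 (SD) and 9.89 ± 0.15 in heterozygotes, unfasted then fasted, and 8.04 ± 0.20 and 8.09 ± 0.20 in mutants. Array medians lay between 7.34 and 7.4, arrays of a group correlated at 0.985 to 0.996, and hepatocyte markers such as Alb were near the top of the range on every array (Alb, 13.49 to 13.66). One array stood apart: unfasted mutant replicate 1 carried transcripts of pancreatic acinar cells (Cpa1 at 12.29 against 6.84 to 7.22 on the other 15 arrays). Where leaving it out changes the count of cell cycle genes called in a contrast, both counts are given. Most of the cell cycle genes were dim: 23 of 36 lay below the median brightness of all genes, 16 of the 17 mitotic ones among them.

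In unfasted mutant liver, genes of all 3 roles were called higher, cyclin D1 by the most. By limma, with one model over all 16 arrays and Benjamini-Hochberg adjustment over all genes, 18 of the 36 (50%) were called higher than in unfasted heterozygotes at an adjusted p under 0.05 and none lower, where 4.25% of all genes were called higher, 3.69% lower and 7.94% either way. The calls comprised 2 of the 5 G1 to S genes, 7 of the 14 replication genes and 9 of the 17 mitotic genes, with differences from 0.23 to 1.82. The median difference over the 36 was 0.29, against 0.01 over all genes. In 14 of the 36 all 4 mutants lay above all 4 heterozygotes, and in none below, a separation found for 6.16% (above) and 5.83% (below) of all genes. In RNA from whole liver, more cells in cycle and more RNA per cell cannot be told apart. The count of 18 was 23 without unfasted mutant replicate 1, 7 without unfasted mutant replicate 2, 9 without mutant replicate 3, 9 and 8 without unfasted heterozygous replicates 3 and 4, and 7 in a fit of these 8 arrays alone. Over all genes the count of 1584 was 764 in that 8-array fit and 1728 without unfasted mutant replicate 1. It was lowest, at 698, without unfasted heterozygous replicate 3. With any 1 of the 16 arrays left out, 7 members kept their call: Ccnd1, Ccne2, Mcm6, Mcm7, Mki67, Top2a and Ube2c.

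**Figure D1:**
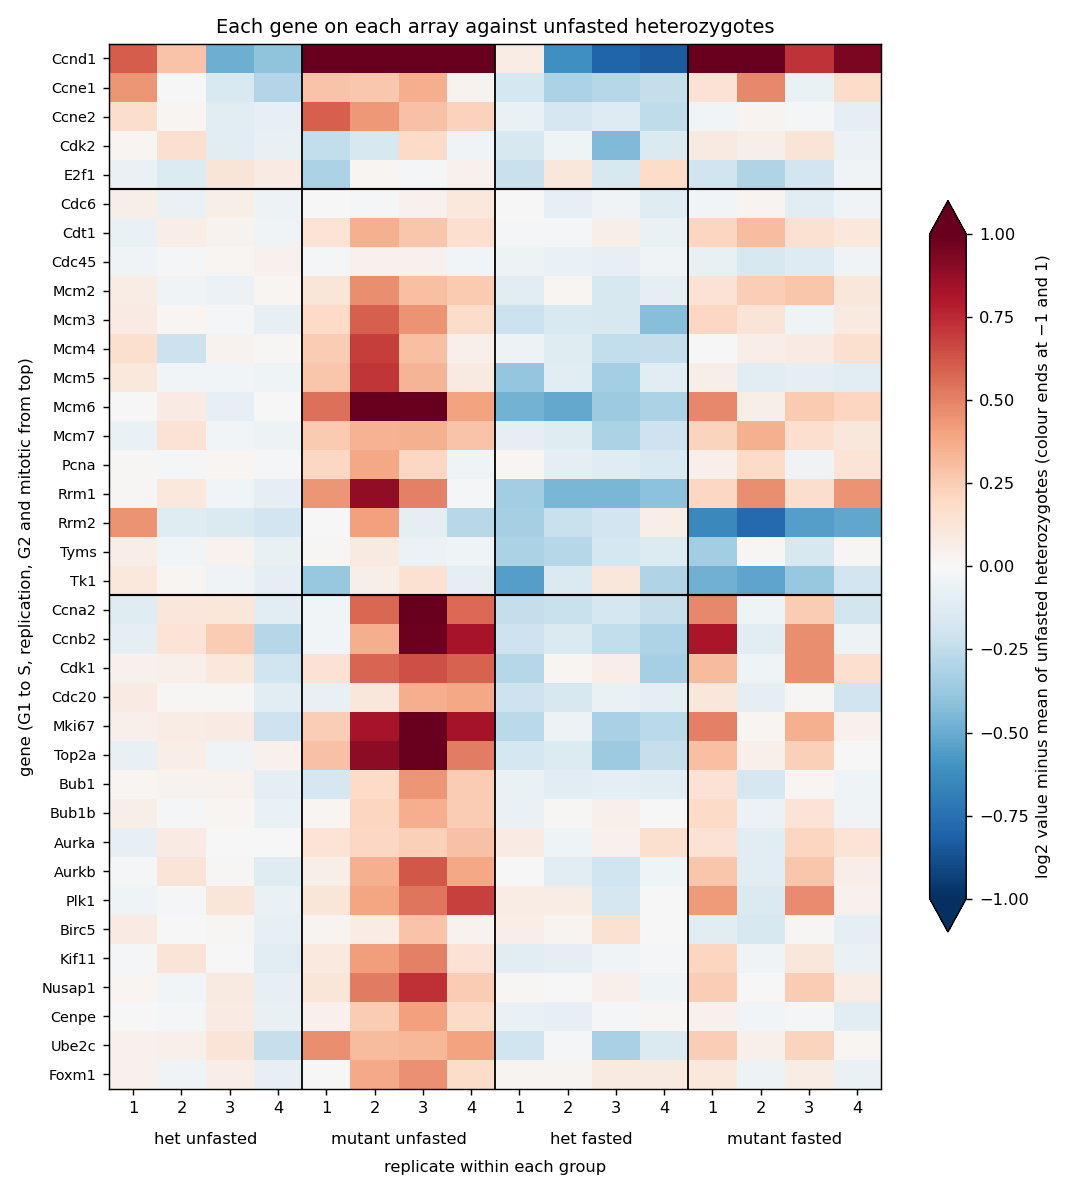
Colour shows each gene's log2 value minus its mean in unfasted heterozygous liver, for the 36 genes (rows, by role) on the 16 arrays (columns, by group and replicate). The mean of the unfasted mutant columns is above that of the unfasted heterozygotes for 32 of 36 genes, and replicate 1 is the palest of the 4 mutants in most mitotic genes.

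Since many members were higher in the same livers, promoter sequences are shown for those with the largest unfasted genotype difference, in either direction, in each role. The RefSeq promoter table of GRCm38.p6 holds 30 members, of which 4 (E2f1, Cdc6, Aurka and Mcm7) were not considered for showing because the start their entry uses lies 228 to 466 bases inside the annotated gene, past a limit of 100 set after the sequences were seen. Each runs from 250 bases before to 50 bases after the annotated start, 5′ to 3′ on the gene's strand. Capitals mark words for E2F (TTTCGCGC, TTTGGCGC, TTTCCCGC or TTTGCCGC), for the cell cycle homology region or CHR (TTTGAA) that recruits the factors of mitotic genes, and for NF-Y (CCAAT), each searched on both strands. The G1 to S genes, neither of them called in unfasted liver, differ: Ccne1 holds no such word in this window, and Cdk2 holds 1 E2F and 1 CCAAT word.
Ccne1, chr7:38107441-38107740, minus strand: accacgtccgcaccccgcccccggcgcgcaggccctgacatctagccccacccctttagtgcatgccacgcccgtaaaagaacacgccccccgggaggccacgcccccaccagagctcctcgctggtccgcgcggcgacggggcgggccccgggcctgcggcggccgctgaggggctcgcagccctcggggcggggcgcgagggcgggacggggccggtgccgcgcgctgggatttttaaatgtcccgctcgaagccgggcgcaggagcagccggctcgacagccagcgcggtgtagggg
Cdk2, chr10:128705002-128705301, minus strand: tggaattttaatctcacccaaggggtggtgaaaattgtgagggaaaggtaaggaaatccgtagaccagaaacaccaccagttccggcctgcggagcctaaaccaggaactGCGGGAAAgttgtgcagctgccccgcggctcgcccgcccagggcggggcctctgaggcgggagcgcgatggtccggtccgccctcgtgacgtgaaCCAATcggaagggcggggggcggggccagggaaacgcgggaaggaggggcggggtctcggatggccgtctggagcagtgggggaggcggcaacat
Of the 3 replication genes, all called higher, Mcm6 and Mcm3 hold E2F words and Rrm1 does not. In Mcm6 the first E2F word overlaps another on the opposite strand.
Mcm6, chr1:128359656-128359955, minus strand: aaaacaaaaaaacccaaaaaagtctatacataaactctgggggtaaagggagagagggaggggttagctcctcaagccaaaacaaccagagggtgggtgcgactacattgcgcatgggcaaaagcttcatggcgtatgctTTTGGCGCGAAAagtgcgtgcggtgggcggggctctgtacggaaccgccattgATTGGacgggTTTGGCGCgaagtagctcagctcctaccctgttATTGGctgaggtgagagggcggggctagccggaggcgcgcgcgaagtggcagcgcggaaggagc
Rrm1, chr7:102441445-102441744, plus strand: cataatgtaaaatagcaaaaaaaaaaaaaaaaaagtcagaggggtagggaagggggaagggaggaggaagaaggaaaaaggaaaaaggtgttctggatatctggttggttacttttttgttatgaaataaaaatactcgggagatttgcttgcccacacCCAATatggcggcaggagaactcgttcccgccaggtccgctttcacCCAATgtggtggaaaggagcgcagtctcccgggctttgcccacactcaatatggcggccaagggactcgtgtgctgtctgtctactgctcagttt
Mcm3, chr1:20820263-20820562, minus strand: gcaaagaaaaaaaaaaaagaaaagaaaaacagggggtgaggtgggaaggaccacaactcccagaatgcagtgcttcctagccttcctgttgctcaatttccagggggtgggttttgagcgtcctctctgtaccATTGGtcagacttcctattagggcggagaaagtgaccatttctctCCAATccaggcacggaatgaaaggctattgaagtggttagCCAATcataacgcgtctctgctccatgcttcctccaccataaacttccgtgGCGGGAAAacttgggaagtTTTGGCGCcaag
The 3 mitotic genes, of which Mki67 and Top2a were called and Ccnb2 was not, each hold both CHR and CCAAT words.
Mki67, chr7:135716330-135716629, minus strand: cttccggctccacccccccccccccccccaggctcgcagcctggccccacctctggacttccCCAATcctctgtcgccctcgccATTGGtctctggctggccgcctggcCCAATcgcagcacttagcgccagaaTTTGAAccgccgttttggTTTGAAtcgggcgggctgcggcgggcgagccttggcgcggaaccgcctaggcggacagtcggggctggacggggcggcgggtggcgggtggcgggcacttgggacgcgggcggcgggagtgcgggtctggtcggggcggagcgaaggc
Top2a, chr11:99024140-99024439, minus strand: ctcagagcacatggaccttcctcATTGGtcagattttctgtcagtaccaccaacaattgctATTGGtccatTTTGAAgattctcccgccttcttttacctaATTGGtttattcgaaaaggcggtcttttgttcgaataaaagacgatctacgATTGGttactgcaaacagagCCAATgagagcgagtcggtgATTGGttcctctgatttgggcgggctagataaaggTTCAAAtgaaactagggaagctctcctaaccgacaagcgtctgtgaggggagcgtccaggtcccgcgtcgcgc
Ccnb2, chr9:70421505-70421804, minus strand: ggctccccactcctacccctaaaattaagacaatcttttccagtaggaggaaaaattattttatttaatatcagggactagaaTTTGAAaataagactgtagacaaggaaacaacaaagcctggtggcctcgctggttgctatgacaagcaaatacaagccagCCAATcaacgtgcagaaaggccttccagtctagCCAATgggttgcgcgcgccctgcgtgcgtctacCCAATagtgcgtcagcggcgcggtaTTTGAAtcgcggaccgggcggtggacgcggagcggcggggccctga

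E2F words were more frequent in replication than in mitotic promoters, and CHR words the reverse, while CCAAT words were in most promoters of both roles. The G1 to S role had only 3 promoters. An E2F word was found in 1 of 3 G1 to S promoters, 6 of 13 replication promoters and 1 of 14 mitotic promoters, against 2.32% of all 27025 promoters of the table. A CHR word was found in 0 of 3, 2 of 13 and 10 of 14, in the same order, against 18.1% of all, and a CCAAT word in 1 of 3, 9 of 13 and 12 of 14, against 37.9%. All 10 mitotic promoters with a CHR word also held CCAAT, a pair present in 7.12% of all promoters. Without entries that start over 100 bases from the outer end of the gene, E2F words were in 1 of 2, 4 of 11 and 1 of 13 promoters, against 2.18% of 22596, and CHR words in 0 of 2, 2 of 11 and 9 of 13, against 19%. These are matches of letters, with no test, and no binding was measured. Ccnd1 and Ccne2, described next, have no entry in the table.

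Among the G1 to S genes, Ccnd1, cyclin D1, the partner of Cdk4 and Cdk6 that couples growth signals to cycle entry, changed most. Unfasted heterozygotes measured 10.68, 10.36, 9.58 and 9.67, and unfasted mutants 11.65, 11.73, 12.11 and 12.11. Every mutant lay above every heterozygote, a difference of 1.82 ± 0.28 (SE), or 3.54-fold (limma, adjusted p = 0.00146). Ccne2, cyclin E2, which activates Cdk2 at the entry to S phase, read 6.66, 6.50, 6.37 and 6.40 in heterozygotes and 7.08, 6.92, 6.78 and 6.72 in mutants. These groups did not overlap either, with a difference of 0.39 ± 0.07 (adjusted p = 0.00557). Its paralog Ccne1 was not called (0.24 ± 0.13, adjusted p = 0.33), and heterozygous replicate 1, at 8.25, lay above all 4 mutants (7.84 to 8.17). Cdk2, the kinase partner of cyclins E and A, differed by -0.06 ± 0.10, and E2f1, the activating E2F, by -0.07 ± 0.10 (adjusted p = 0.778 and 0.760). The calls in this role were thus cyclins D1 and E2, which pair with different kinases.

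**Figure D2:**
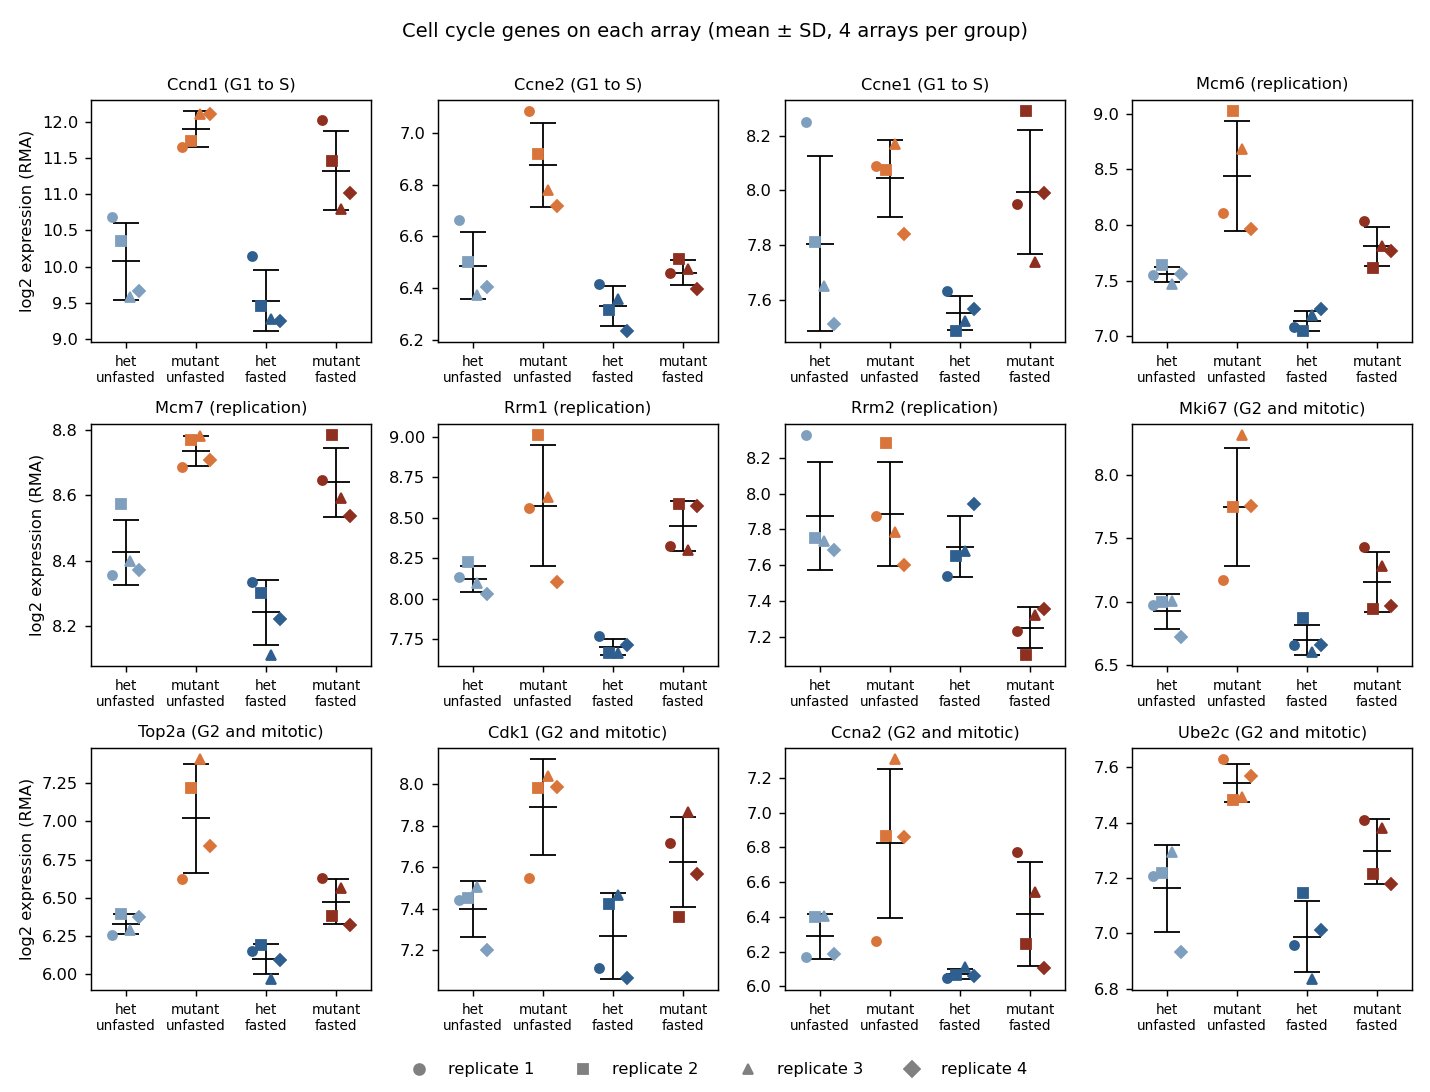
Log2 value of selected genes on every array (points, marker shape by replicate) with the mean ± SD of 4 arrays per group. Ccnd1 in mutants lies above all heterozygotes in both states. Mki67, Top2a, Cdk1 and Ccna2 spread widely among the unfasted mutants, with replicate 1 nearest the heterozygotes. Ube2c is tight in that group, with replicate 1 the highest.

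Of the replication genes, the subunits of the MCM2-7 helicase formed the bulk of the calls, 5 of 6. Mcm6 had the largest difference: heterozygotes measured 7.55, 7.64, 7.47 and 7.56 and mutants 8.11, 9.02, 8.68 and 7.96. The mutants all lay above, by 0.89 ± 0.17 or 1.85-fold (adjusted p = 0.00536), with replicates 2 and 3 well above 1 and 4. Mcm2, Mcm3 and Mcm7 differed by 0.29 ± 0.07, 0.36 ± 0.09 and 0.31 ± 0.07 (adjusted p = 0.0178, 0.0205 and 0.0125), each with no overlap between groups. Mcm5, at 0.35 ± 0.10 (adjusted p = 0.0465), overlapped by 1 mutant array at 7.92 against a heterozygote at 7.93, and the omission of any one of 13 arrays ended its call (highest adjusted p, 0.12). The remaining subunit, Mcm4, was at 0.33 ± 0.11 and not called (adjusted p = 0.0713). Cdt1, which loads the helicase on origins with Cdc6, was higher by 0.23 ± 0.06 (adjusted p = 0.0220), with no overlap. Cdc6 itself (0.03 ± 0.05) and Cdc45, which activates the loaded helicase (0.01 ± 0.04), were not called.

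Nucleotide supply split by subunit. Rrm1, the large subunit of ribonucleotide reductase, read 8.13, 8.23, 8.10 and 8.03 in unfasted heterozygotes and 8.56, 9.01, 8.63 and 8.10 in mutants. Mutant replicate 4 fell inside the heterozygous range, and the difference of 0.45 ± 0.13 (adjusted p = 0.0473) was no longer called after omission of any one of 14 arrays (highest adjusted p, 0.13). Rrm2, the small subunit that is made in S phase, measured 8.33, 7.75, 7.73 and 7.68 against 7.87, 8.28, 7.79 and 7.60, with full overlap and a difference of 0.01 ± 0.15. Tyms, thymidylate synthase, overlapped throughout (8.20 to 8.35 against 8.22 to 8.37), and Tk1, thymidine kinase, differed by -0.07 ± 0.13 without a call. Pcna, the sliding clamp of the polymerases, was at 0.19 ± 0.08 (adjusted p = 0.155). The calls in this role were thus 5 helicase subunits, the loader Cdt1 and Rrm1.

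All 17 mitotic genes had a positive difference in unfasted mutants, the 9 called ones between 0.23 and 0.82. Mki67, the proliferation antigen Ki-67 that coats mitotic chromosomes, measured 6.98, 7.0, 7.01 and 6.72 in heterozygotes and 7.17, 7.75, 8.31 and 7.76 in mutants. The groups did not overlap, and the difference was 0.82 ± 0.17 or 1.77-fold (adjusted p = 0.0101). Top2a, topoisomerase II alpha, which untangles sister DNA, read 6.25, 6.39, 6.29 and 6.37 against 6.62, 7.22, 7.41 and 6.84. It was higher in every mutant, by 0.69 ± 0.13 (adjusted p = 0.00442), while a second and dimmer Top2a probe set showed -0.08. Cdk1, the mitotic kinase, measured 7.44, 7.45, 7.51 and 7.20 against 7.55, 7.98, 8.04 and 7.99, higher by 0.49 ± 0.13 (adjusted p = 0.0280). Again the groups did not overlap, with mutant replicate 1 just above the heterozygotes.

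The other called mitotic genes were Ube2c, the ubiquitin-conjugating enzyme of the anaphase-promoting complex (0.38 ± 0.08, adjusted p = 0.0105), Nusap1, a spindle microtubule protein (0.41 ± 0.10, adjusted p = 0.0187), the kinetochore motor Cenpe (0.23 ± 0.06), the kinases Plk1 (0.43 ± 0.13) and Aurkb (0.36 ± 0.11), and the spindle motor Kif11 (0.29 ± 0.08). The last 3 had adjusted p values of 0.0467 to 0.0495 and were no longer called after omission of any one of 12, 11 and 11 arrays, in the order given (highest adjusted p, 0.14). Ccna2 and Ccnb2, cyclins A2 and B2, had large differences that were not called, 0.53 ± 0.17 (adjusted p = 0.0649) and 0.54 ± 0.21 (adjusted p = 0.144). Their mutants spread widely, Ccnb2 at 7.81, 8.20, 8.82 and 8.66 and Ccna2 at 6.26, 6.87, 7.31 and 6.86. Foxm1, the transcription factor of the mitotic program, differed by 0.25 ± 0.08 (adjusted p = 0.0572), as did Aurka, the centrosomal kinase, by 0.22 ± 0.07 (adjusted p = 0.0572). The checkpoint kinases Bub1 and Bub1b, the anaphase activator Cdc20 and the survivin gene Birc5 lay between 0.10 and 0.21 and were not called.

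**Figure D3:**
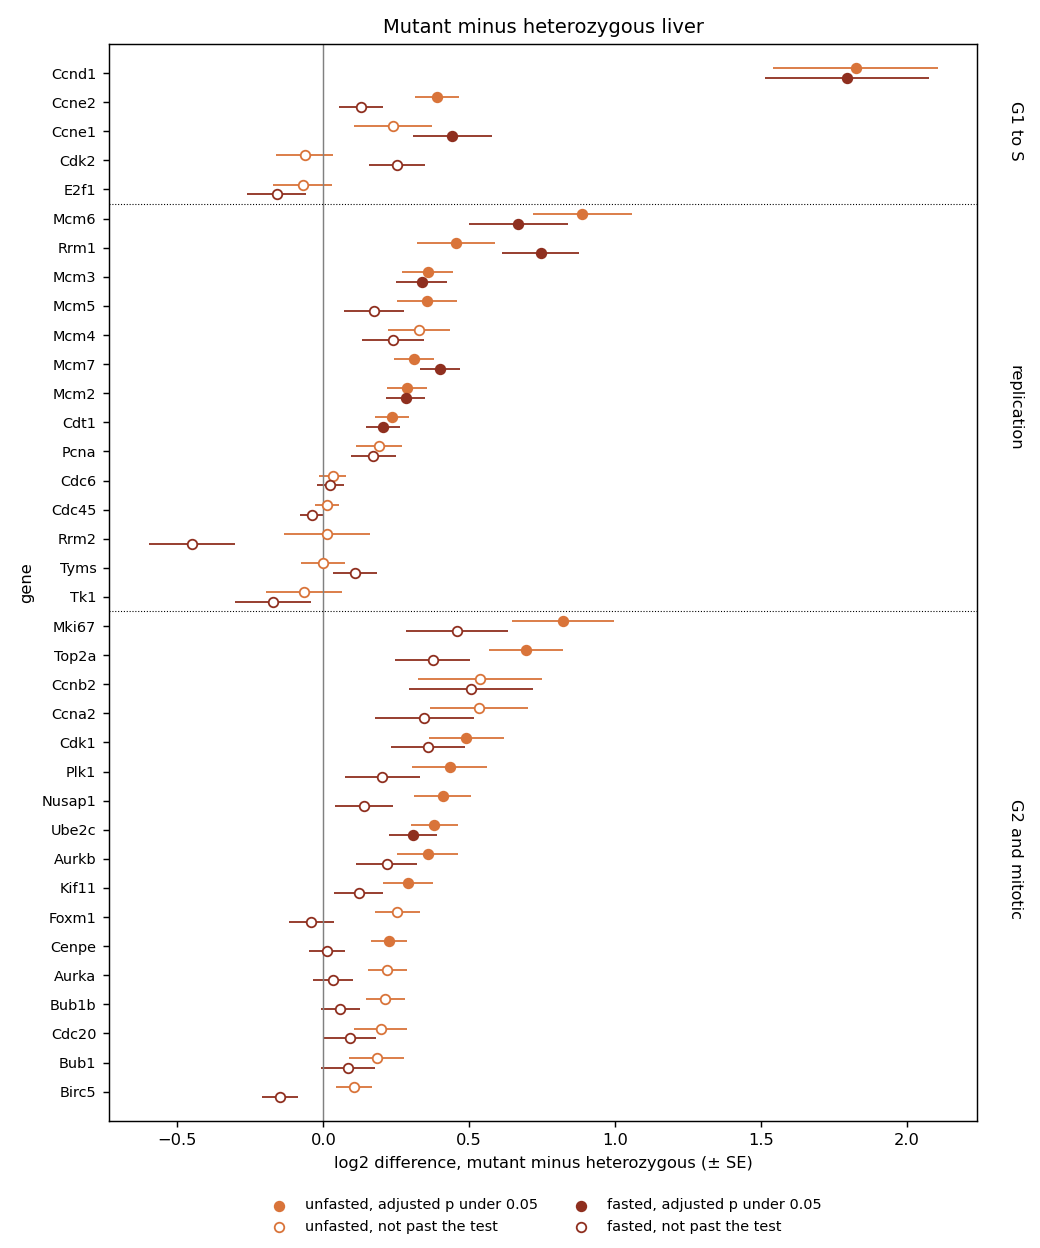
Difference in log2 value, mutant minus heterozygous, with its SE for each of the 36 genes, unfasted and fasted. Filled points passed the test at an adjusted p under 0.05. Ccnd1 is near 1.8 in both states, and for every mitotic gene the fasted point lies to the left of the unfasted one, Birc5 and Foxm1 crossing 0.

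Within the unfasted mutants the roles ranked the animals differently. Replicate 1, the array with acinar transcripts, was the lowest of the 4 mutants in 16 of 17 mitotic genes, and replicate 3 the highest in 13. Among replication genes replicate 2 was the highest in 10 of 14 and replicate 4 the lowest in 8. Averaged over a role and set against the unfasted heterozygous mean, the 4 mutants reached 0.46 ± 0.08 (SD) for G1 to S genes, 0.24 ± 0.17 for replication genes and 0.37 ± 0.22 for mitotic genes. With replicate 1 left out, 16 of 17 mitotic genes were called higher in unfasted mutants, Ccna2 (0.72 ± 0.14, adjusted p = 0.00706) and Ccnb2 (0.72 ± 0.20, adjusted p = 0.0379) among them, with differences of 1.01 for Mki67 and 0.83 for Top2a, where 4.88% of all genes were called higher and 8.67% either way. The replication calls went from 7 to 5 without that array, Mcm5 and Rrm1 being lost (adjusted p = 0.0504 and 0.0688), and the G1 to S calls stayed at 2. Among unfasted heterozygotes, replicate 4 was the lowest in 14 of 17 mitotic genes.

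**Figure D4:**
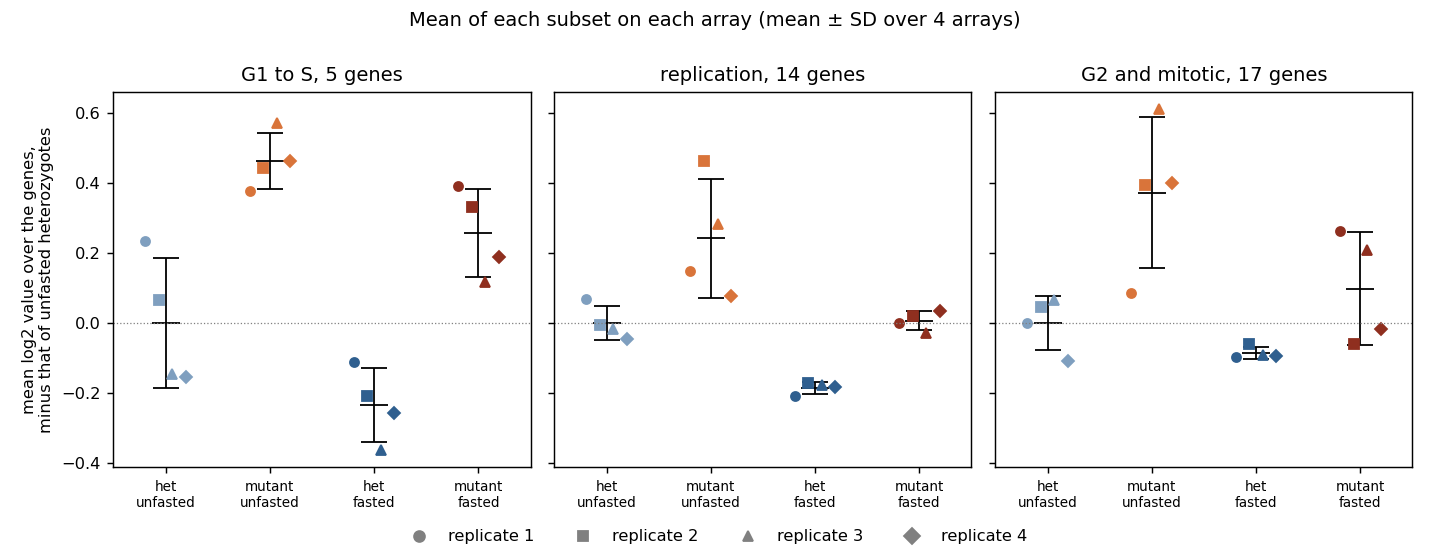
Mean over the genes of each role on every array, minus the mean of the unfasted heterozygotes (log2), with 4 arrays per group. The unfasted mutants average 0.46, 0.24 and 0.37 in the G1 to S, replication and mitotic genes, and the fasted heterozygotes lie below 0 in all 3.

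Some markers of other liver cells also differed between the unfasted genotypes. In unfasted mutants 10 of 14 endothelial markers (71.4%) and 7 of 13 stellate cell markers (53.8%) were called higher, against 4.25% of all genes. Their mean levels did not overlap between genotypes: 9.22 to 9.59 against 9.75 to 9.93 for the endothelial list and 8.74 to 8.91 against 9.08 to 9.23 for the stellate list. None of 15 macrophage, 11 lymphocyte or 6 cholangiocyte markers was called by limma in this contrast (6, 0 and 1 at an unadjusted p under 0.05), and 1 of 10 neutrophil markers was higher. The macrophage list ranged from 8.41 to 8.87 in heterozygotes and from 8.65 to 9.26 in mutants, with a median difference of 0.30. The hepatocyte list stayed between 12.59 and 12.88, with 1 of 11 lower. The erythroid list, whose precursors divide, had 1 of 6 lower (Alas2, -1.30 ± 0.33). The mean of the lymphocyte list lay between 6.18 and 6.58 on all unfasted arrays, and its brightest marker, Cd79b of B cells, between 7.48 and 8.30. With unfasted mutant replicate 1 left out, the endothelial count stayed at 10, the stellate count was 8 and 1 cholangiocyte marker was higher. Which cells held the cell cycle transcripts was not tested.

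In fasted liver the genotype difference was again called for cyclin D1 and for replication genes, and in a single mitotic gene. Of the 36 genes, 9 (25%) were called higher in fasted mutants than in fasted heterozygotes and none lower (16 and 2 at an unadjusted p under 0.05), where 8.62% of all genes were called higher, 5.01% lower and 13.6% either way. By role the calls were 2 of 5 G1 to S genes, 6 of 14 replication genes and 1 of 17 mitotic genes (5.88%), the last share below that of all genes. The median difference was 0.19 against -0.02 over all genes. All fasted mutants lay above all fasted heterozygotes for 13 of the 36, and below for 1, against 12.8% and 11% of all genes. The count of 9 was 12 without unfasted mutant replicate 1 and 4 without fasted mutant replicate 1. Over all genes the count of 2716 was 3180 without unfasted mutant replicate 1 and lowest, at 1575, without fasted mutant replicate 2. In a fit of the 8 fasted arrays alone, 12 genes were higher and 1, Rrm2, lower (adjusted p = 0.00982). That fit called 1923 of all 19938 genes higher and 1103 lower.

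Ccnd1 measured 10.14, 9.46, 9.27 and 9.24 in fasted heterozygotes and 12.02, 11.46, 10.80 and 11.01 in fasted mutants. The groups were far apart, by 1.79 ± 0.28 or 3.47-fold (adjusted p = 0.00117). Ccne1 was called in the fasted state alone, at 7.63, 7.49, 7.52 and 7.57 against 7.95, 8.29, 7.74 and 7.99. Its difference of 0.44 ± 0.13 (adjusted p = 0.0402), with no overlap, ceased to be called when any one of 7 arrays was omitted (highest adjusted p, 0.13). Ccne2, called unfasted, differed by 0.13 ± 0.07 (adjusted p = 0.257) in the fasted state. The change between states was not called for either cyclin E gene (interaction of 0.20 ± 0.19, adjusted p = 0.670, for Ccne1 and of -0.26 ± 0.11, adjusted p = 0.419, for Ccne2).

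Rrm1 had the largest fasted difference of the replication genes. It read 7.77, 7.67, 7.66 and 7.71 in fasted heterozygotes and 8.33, 8.59, 8.30 and 8.58 in fasted mutants. Both groups were tight and separate, by 0.74 ± 0.13 or 1.68-fold (adjusted p = 0.00260). Mcm6 followed, at 7.08, 7.05, 7.19 and 7.24 against 8.03, 7.62, 7.81 and 7.77. It was higher in all 4 mutants, by 0.67 ± 0.17 (adjusted p = 0.0166, and 0.0508 without fasted mutant replicate 1). Mcm7, Mcm3, Mcm2 and Cdt1 were also called, with differences of 0.40 ± 0.07, 0.34 ± 0.09, 0.28 ± 0.07 and 0.21 ± 0.06. The partner of Rrm1 went the other way in value: Rrm2 measured 7.54, 7.65, 7.68 and 7.94 in fasted heterozygotes and 7.23, 7.10, 7.32 and 7.35 in fasted mutants. Every fasted mutant was below every fasted heterozygote for Rrm2, yet the difference of -0.45 ± 0.15 was just short of a call (adjusted p = 0.0536). The Tk1 probe set used here differed by -0.17 ± 0.13, and a second, dimmer one by -0.59, so that the 2 disagreed on the size.

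Of the mitotic genes only Ube2c was called in fasted mutants, at 0.31 ± 0.08 (adjusted p = 0.0209). Mki67 measured 6.66, 6.87, 6.60 and 6.66 in fasted heterozygotes and 7.43, 6.95, 7.28 and 6.97 in fasted mutants. The groups did not overlap, and the difference of 0.46 ± 0.17 was not called (adjusted p = 0.0901). Top2a (0.37 ± 0.13, adjusted p = 0.0621) and Ccnb2 (0.51 ± 0.21, adjusted p = 0.126) were likewise separate without a call. Without unfasted mutant replicate 1, which is in the fit but not in this contrast, 4 of 17 mitotic genes were called, with Mki67 (adjusted p = 0.0296), Top2a (adjusted p = 0.0218) and Cdk1 (adjusted p = 0.0393) added, where 15.9% of all genes were called either way. In fasted mutants replicate 1 was the highest of the 4 in 12 of 17 mitotic genes, and replicates 2 and 4 shared the lowest values, in 10 and 7. Averaged over the mitotic genes, fasted mutants lay 0.10 ± 0.16 (SD) above the unfasted heterozygous mean. In the fits that centred arrays on the median, used array weights or took the 8 fasted arrays alone, 3, 4 and 3 mitotic genes were called. Over all 19938 genes these fits called 3483, 3847 and 3026, in the same order. Endothelial markers were higher in fasted mutants too, 12 of 14, as were 11 of 15 macrophage markers (mean levels 8.45 to 8.88 in heterozygotes and 9.14 to 9.49 in mutants) and 3 of 13 stellate markers. Called lower were 2 of 6 erythroid markers (lowest difference of the list, -1.53) and 1 of 6 cholangiocyte markers (lowest, -0.62). None of 11 hepatocyte or 10 neutrophil markers was called. Of all genes, 8.62% were called higher in this contrast and 5.01% lower. The mean of the lymphocyte list was 6.16 to 6.36 in fasted heterozygotes and 6.36 to 6.47 in fasted mutants, where of 11 markers the B cell marker Ms4a1 was called higher (0.41 ± 0.10, adjusted p = 0.0177) and the T cell marker Cd3d lower (-0.17 ± 0.05, adjusted p = 0.0379), with 6 at an unadjusted p under 0.05. The part of these markers in the cell cycle values was not tested.

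Over both states, 8 genes were called higher in mutants unfasted and fasted: Ccnd1, Cdt1, Mcm2, Mcm3, Mcm6, Mcm7, Rrm1 and Ube2c. The call was made in the unfasted state alone for 10 genes and in the fasted state alone for 1, and 28 of 36 had a positive difference in both. These genotype contrasts compare separate arrays, but both use the 1 spread per gene that is pooled over all 16 arrays. For the difference of differences, the interaction of genotype and fasting, limma called none of the 36 (0.01% of all genes, 2 of 19938, both higher, and 0% lower). At an unadjusted p under 0.05 it gave 6 members, of which Birc5 had the smallest adjusted p (0.379). The signed genotype difference was lower in the fasted than in the unfasted state in 31 of 36 genes, 17 of 17 mitotic ones. In size, without the sign, it was smaller in 26 of 36 and in 16 of 17 mitotic genes, Birc5 being the exception (0.10 unfasted and -0.15 fasted). The median interaction was -0.19 for the mitotic genes, -0.03 for the replication genes and -0.01 over all genes. No member's change between states passed the test.

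Fasting of heterozygotes gave no call among the 36 genes by limma. In this contrast 0.732% of all genes were called higher, 0.838% lower and 1.57% either way. At an unadjusted p under 0.05 there were 7 members, all lower, the smallest adjusted p being 0.149. Without unfasted mutant replicate 4 there was 1 call, and 358 of all genes were called. The values leaned down: 31 of 36 differences were below 0, including 14 of 14 replication genes, and the median was -0.14 against 0.01 over all genes. For 9 of the 36 all fasted heterozygotes lay below all unfasted ones, and for none above, against 5.11% and 5.35% of all genes. Rrm1, at 8.13, 8.23, 8.10 and 8.03 unfasted and 7.77, 7.67, 7.66 and 7.71 fasted, was such a gene (-0.42 ± 0.13, adjusted p = 0.149). Mcm6 was another (-0.42 ± 0.17, adjusted p = 0.298), as was Tyms (-0.23 ± 0.08, adjusted p = 0.171). In a fit of the 8 heterozygous arrays alone, Rrm1 and Mcm6 passed the test (adjusted p = 0.00648 and 0.00801), the 2 members that did. That fit called 568 of all genes. Fasted heterozygotes were also alike among themselves, with a role mean of -0.18 ± 0.02 (SD) for replication and -0.09 ± 0.02 for mitotic genes.

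Fasting of mutants lowered 5 of the 36 genes (13.9%) and raised none, where 1.02% of all genes were called lower, 2.33% higher and 3.35% either way. Differences were below 0 in 35 of 36, with a median of -0.24 against -0.01 over all genes. For 7 of the 36 the groups did not overlap, all lower, against 4.54% of all genes lower and 5.49% higher. Ccne2 went from 7.08, 6.92, 6.78 and 6.72 to 6.46, 6.51, 6.47 and 6.39. It fell by 0.42 on the log2 scale (SE 0.07, adjusted p = 0.0101), with no overlap, and kept the call with any 1 array left out. Rrm2 went from 7.87, 8.28, 7.79 and 7.60 to 7.23, 7.10, 7.32 and 7.35. Its fall of 0.63 (SE 0.15, adjusted p = 0.0292) also separated the groups. Mcm5 fell by 0.42 (SE 0.10, adjusted p = 0.0382), Cenpe by 0.25 (SE 0.06, adjusted p = 0.0327) and Top2a by 0.55 (SE 0.13, adjusted p = 0.0291). Mcm6 (-0.63 ± 0.17, adjusted p = 0.0511) and Mki67 (-0.59 ± 0.17, adjusted p = 0.0702) were near the threshold, while Ccnd1 (-0.57 ± 0.28, adjusted p = 0.245) and Rrm1 (-0.13 ± 0.13, adjusted p = 0.584) were not.

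This count moved with single animals. Without unfasted mutant replicate 1 it was 18, while the share of all genes called lower went from 1.02% to 4.47% and called either way from 3.35% to 9.74%. The 18 comprised 1 G1 to S gene, 12 of the 17 mitotic genes, Mki67 (-0.78 ± 0.14, adjusted p = 0.00785) and Ccna2 (-0.59 ± 0.14, adjusted p = 0.0197) among them, and 5 of the 14 replication genes, Mcm6 (-0.74 ± 0.17, adjusted p = 0.0197) being one. It was 1 without unfasted mutant replicate 2 and 2 without replicate 3, and 1, 1 and 2 without fasted mutant replicates 2, 3 and 4. The fit of the 8 mutant arrays alone gave 0, and array weights gave 8. The unfasted mutants are also the group in which the genotype contrast found the higher values, so the fall on fasting and the unfasted genotype difference share 4 arrays. Of the cell type markers, 1 of 13 stellate, 1 of 10 neutrophil and 1 of 6 cholangiocyte markers were lower in fasted than in unfasted mutants, Ms4a1 of 11 lymphocyte markers was higher (0.42 ± 0.10, adjusted p = 0.0384), and none of the 14 endothelial or 15 macrophage markers was called by limma. At an unadjusted p under 0.05 there were 5 cholangiocyte, 6 stellate, 3 neutrophil, 3 lymphocyte, 2 endothelial and 7 macrophage markers. Without unfasted mutant replicate 1 the markers called lower were 4 of 6 cholangiocyte, 2 stellate and 2 neutrophil ones, and 1 macrophage marker was higher. The part of these cells in the fall was not tested.

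**Figure D5:**
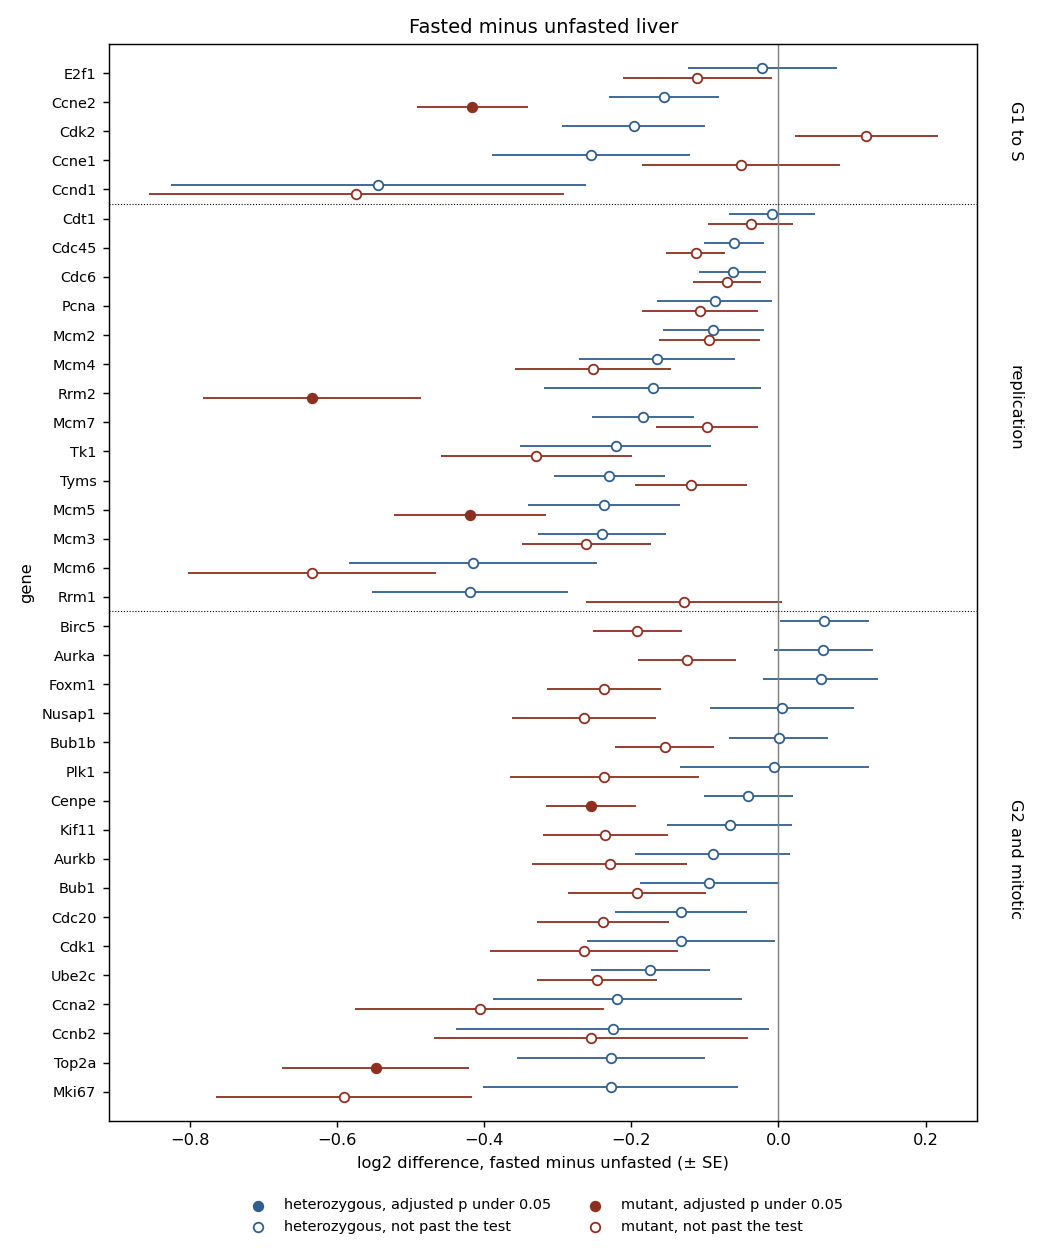
Difference in log2 value, fasted minus unfasted, with its SE for each of the 36 genes in heterozygous and mutant liver. Filled points passed the test at an adjusted p under 0.05. Differences lie below 0 in 31 genes in heterozygotes and in 35 in mutants, and the 5 filled points are all in mutants.

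Other genes of the cycle were taken from lists of 32 G1 and checkpoint genes, 35 replication genes and 54 mitotic genes with a probe set. The first list holds G1 regulators, Cdk inhibitors, retinoblastoma and E2F family members and checkpoint genes such as Wee1. In unfasted mutants 16 of the 54 further mitotic genes (29.6%) were called higher and none lower, against 4.25% and 3.69% of all genes. The largest were Ect2, the exchange factor that starts the cytokinetic furrow (1.13 ± 0.19), Mad2l1, the spindle checkpoint protein Mad2 (0.68 ± 0.15), Anln, the furrow scaffold anillin (0.60 ± 0.14), and the condensin subunit Ncapg2 (0.47 ± 0.09). Without unfasted mutant replicate 1 the count was 26, where 4.88% of all genes were called higher. Of the 32 further G1 and checkpoint genes 6 were higher and 2 lower (25%, against 7.94% of all genes). Higher were Wee1, the kinase that holds Cdk1 inactive (1.12 ± 0.33), Cdkn2c, the inhibitor p18 of Cdk4 and Cdk6 (0.65 ± 0.12), and Cdk6 itself (0.41 ± 0.10). Rbl2, the quiescence-associated pocket protein p130, was lower (-0.40 ± 0.07, adjusted p = 0.00306). Of the 35 further replication genes 1 was higher and 1 lower, the DNA ligase Lig1 (0.30 ± 0.07) and the initiation factor Mcm10 (-0.70 ± 0.10). The share called in that list, 5.71%, was near the 7.94% of all genes, and without unfasted mutant replicate 1 it was 11.4%, 3 higher and 1 lower, against 8.67%. Omission of any one of 13 arrays ended the Wee1 call (highest adjusted p, 0.15). Of the further G1 and checkpoint genes 5 were higher and 2 lower without unfasted mutant replicate 1 (21.9%, against 8.67% of all genes).

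The fasted genotype contrast gave other counts. Of the further replication genes 9 of 35 were higher and none lower (25.7%, against 13.6% of all genes called either way). The largest were the primase subunits Prim1 (0.71 ± 0.13) and Prim2 (0.46 ± 0.10), the clamp loader subunit Rfc4 (0.49 ± 0.11) and Dbf4, the activator of the Cdc7 kinase (0.44 ± 0.11). Of the further G1 and checkpoint genes 10 of 32 were higher and 1 lower (34.4%, against 13.6% of all genes). Myc, the growth-promoting transcription factor, was higher by 2.02 ± 0.40 (adjusted p = 0.00494), E2f8, an atypical E2F repressor, by 1.16 ± 0.30, the Cdk phosphatase Cdc25a by 0.61 ± 0.11 and Cdk6 by 0.59 ± 0.10. Of the 54 further mitotic genes 4 were called, Ect2 (0.99 ± 0.19), Mad2l1 (0.94 ± 0.15), the condensin subunit Smc4 (0.45 ± 0.08) and the centriole kinase Plk4 (0.36 ± 0.06). The mitotic share was 7.41%, against 13.6% of all genes. Leaving out unfasted mutant replicate 1 gave 14.8%, 7 higher and 1 lower, against 15.9%.

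Fasting of heterozygotes lowered Mad2l1 (-0.67 ± 0.15), Dbf4 (-0.55 ± 0.11) and the clamp loader subunit Rfc3 (-0.42 ± 0.08), the 3 calls among the 121 genes of these lists (2.48%, against 1.57% of all genes). Fasting of mutants lowered the mitotic genes Dlgap5 (-0.25 ± 0.05), Ncapg (-0.22 ± 0.06) and Nuf2 (-0.21 ± 0.04), and raised Rbl2 (0.39 ± 0.07) and the origin recognition subunit Orc3 (0.29 ± 0.07), 5 calls or 4.13% against 3.35% of all genes. Without unfasted mutant replicate 1, 24 of the 54 further mitotic genes, 3 of the 35 replication genes and 2 of the 32 G1 and checkpoint genes were called lower on fasting of mutants, where 4.47% of all genes were. With that array left out, 3 of the 121 genes were called higher on fasting of mutants, where 5.27% of all genes were. On fasting of heterozygotes 4 were then lower (3.31%, against 1.76% of all genes). Omission of any one of 9 arrays ended the Mad2l1 call, of 13 the Ncapg call and of 8 the Orc3 call. Rbl2 was lower in unfasted mutants than in unfasted heterozygotes and rose on fasting in mutants.

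Stress-response genes tied to p53 and growth arrest were followed on a list of 21. In unfasted mutants 4 were higher, Gadd45b (1.68 ± 0.34), the mTOR inhibitor Ddit4 (1.33 ± 0.31), Trp53inp1 (0.86 ± 0.22) and Gadd45a (0.81 ± 0.22), and Ei24 was lower (-0.30 ± 0.08). The share called was 23.8%, against 7.94% of all genes, and without unfasted mutant replicate 1 it was 14.3%, 2 higher and 1 lower, against 8.67%. Fasted mutants had 1 higher, the death receptor gene Tnfrsf10b (0.43 ± 0.11), and Ei24 lower (-0.24 ± 0.08), a share of 9.52% against 13.6% of all genes. Without that array 2 were higher and none lower (9.52%, against 15.9% of all genes). Fasting raised Gadd45b (1.91 ± 0.34), Ccng2, cyclin G2 (0.64 ± 0.12), and Ei24 (0.43 ± 0.08) in heterozygotes, and in mutants raised Ei24 (0.49 ± 0.08) and lowered Gadd45a (-0.83 ± 0.22), a call that ended with omission of any one of 14 arrays (highest adjusted p, 0.094). Gadd45b and Ddit4 respond to other stresses as well as to p53.

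Of 18 hepatocyte mitogens, receptors and early growth genes, 1 was called higher and 1 lower in unfasted mutants (11.1%, against 7.94% of all genes). In the fasted contrast 1 was higher and 3 lower (22.2%, against 13.6%). Hgf, the hepatocyte growth factor made by stellate and endothelial cells, was higher in mutants unfasted (0.52 ± 0.10) and fasted (0.39 ± 0.10). Fgfr4, the hepatocyte receptor for intestinal FGF, was lower in both (-0.63 ± 0.18 and -0.85 ± 0.18). Omission of any one of 12 arrays ended the unfasted Fgfr4 call (highest adjusted p, 0.14). In the fasted contrast Il6ra, the interleukin 6 receptor (-0.66 ± 0.16), and the early gene Fos (-0.65 ± 0.19) were lower too. Fasting raised Il6ra in heterozygotes (0.87 ± 0.16) and lowered Ankrd1, a target of the YAP pathway, in mutants (-0.38 ± 0.08). Each was the 1 call of the list in its contrast (5.56%, against 1.57% and 3.35% of all genes).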

How the data were processed

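Total RNA (300 ng) of each liver was measured on 1 Affymetrix Mouse Gene 1.0 ST array, 16 arrays in all. The deposited table holds log2 values made by the authors with RMA in Affymetrix Expression Console, per the submitters' processing notes and labels; the log2 scale was checked from the range of 3.80 to 14.33. RMA is background correction, quantile normalization and probe summary, so a change shared by most genes would be removed, and dim probe sets are compressed towards background. With 4 arrays per group, their number limits the precision.

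From 35556 probe sets, 21789 with 1 gene symbol were kept (1621 had several, 12146 none listed). Symbols were updated through Entrez ID in RefSeq GRCm38.p6 (21698 matched, 91 kept). The brightest probe set stood for each of 999 genes with several, leaving 19938 genes. limma 3.58.1 (R 4.3.3) fitted 1 mean per group over all 16 arrays, with eBayes and an intensity trend, and Benjamini-Hochberg adjustment over all genes in each contrast, calling at 0.05. No arrays held identical values. The p-values rest on 1 spread per gene, pooled over the 4 groups of 4 mice and moderated over genes. The median SD of a gene was 0.107 in unfasted mutants and 0.0718 to 0.0855 in the other groups. The fit was tested on simulated data. Groups came from the labels and all samples had one.

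Members and gene lists were chosen with earlier results of these data known. Every member was described, and up to 4 called genes with the largest difference were named per further list and contrast. Promoters came from the RefSeq table, the first entry per gene. Alternatives covered a replicate block, 8-array fits, array weights, median centring, a second quantile normalization, eBayes without trend or robust, mean over probe sets, a brightness filter, a threshold of 0.01 and leaving out each array.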

Additional observations from a re-analysis of the deposited data

Results flagged for a closer look

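Each of the 36 genes was checked in each of the 4 groups for an array far from its other 3, by Dixon's gap test, and 5 of 144 groups of values stood out. Chance alone flags about 1 in 20 groups. In unfasted heterozygotes replicate 1 was high for Mcm5 (7.93, the others 7.78 to 7.80) and for Rrm2 (8.33, the others 7.68 to 7.75). In unfasted heterozygotes replicate 4 was low for Mki67 (6.72, the others 6.98 to 7.01) and for Bub1 (5.60, the others 5.71 to 5.73). In unfasted mutants replicate 1, the array with acinar transcripts, was low for Cdk1 (7.55, the others 7.98 to 8.04).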

How the results depend on the processing

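No result changed direction past the threshold under any alternative. Members called in unfasted mutants against unfasted heterozygotes (18) became 7 with the 8 arrays of the contrast alone, 6 with genes above the median brightness, where 13 members were tested, 4 at an adjusted p under 0.01, and 7 to 23 with 1 array left out. For fasted mutants against fasted heterozygotes (9) the count was 3 at 0.01 and 4 to 12 with 1 array left out. For fasting in heterozygotes (0) it was 2 with 8 arrays, 2 with array weights and 0 to 1 with 1 array left out. For fasting in mutants (5) it was 0 with 8 arrays, 8 with array weights, 3 above the median brightness, 0 at 0.01 and 1 to 18 with 1 array left out. The interaction gave 0 throughout. Over all genes, the unfasted genotype count (1584) was 764 with 8 arrays, 461 at 0.01 and 698 to 1781 with 1 array left out, and the fasted one (2716) was 993 at 0.01 and 1575 to 3180. Fasting in heterozygotes (313) gave 568 with 8 arrays, 1029 with array weights, 73 at 0.01 and 155 to 358, and fasting in mutants (667) gave 33 with 8 arrays, 79 at 0.01 and 224 to 1941. The interaction (2) gave 1 with array weights, 1 with median centring, 0 with robust settings, 0 above the median brightness, 0 at 0.01 and 0 to 6. The causes were not tested, beyond the fewer arrays or genes and the stricter threshold that some settings use by construction. Members without a call, with differences of at most 0.13 in either direction, changed sign under some alternative, 6 in the unfasted and 2 in the fasted genotype contrast, 5 and 3 for fasting in heterozygotes and mutants and 10 for the interaction. Calls kept in every alternative were Ccnd1 and Mcm6 unfasted and Ccnd1, Mcm7 and Rrm1 fasted. Ccne2 and Top2a kept their unfasted calls in all alternatives but the brightness filter, in which they were not tested.

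The labels do not say whether the replicate numbers pair the mice, and the main fit used no pairing. Same-numbered arrays correlated at -0.12 to 0.25 in their deviations from the group means over 24 pairs, 9 of them over 0.1. Other pairs correlated at -0.35 to 0.33. These ranges overlap, so they cannot settle whether the numbers pair the mice. The replicate block gave 15 members unfasted, 9 fasted, 0 and 4 for fasting in heterozygotes and mutants, and 0 for the interaction. The mitotic genes were the dimmest of the roles, 16 of 17 lying below the median brightness, and the effect of this on their calls was not tested.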

Other observations

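On unfasted mutant replicate 1, the acinar genes Ctrb1 (12.64 against 7.16 to 7.63 on the other 15 arrays), Cel (10.85 against 5.97 to 6.24) and Ctrl (10.49 against 6.63 to 6.92) were high, while the acinar transcription factors Ptf1a (5.91 against 5.82 to 6.03) and Rbpjl (7.31 against 7.05 to 7.36) were within the range of the others. The transferrin receptor gene Tfrc, an iron uptake gene that dividing cells also express, was at 9.61 on that array against 8.04 to 8.75 on the others. These genes were chosen after their values were seen.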
